A study of Mus musculus with 21 samples.

Results

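The 10 genes described here, chosen by name and all found among the 45706 genes of the deposited table, are those of the MYC and MAX network: Myc and its paralogues Mycn and Mycl, the partner Max, the antagonists Mxd1, Mxd4, Mxi1, Mnt and Mga, and the related partner Mlx. MYC is a transcription factor that binds DNA at E-box sites as a dimer with MAX, and drives growth and ribosome production in many prostate cancers. MAX also pairs with the MXD proteins, MNT and MGA, which compete for the same sites and recruit repressors. MLX pairs with some MXD proteins, with MNT and with the glucose-responsive factors MondoA and ChREBP.

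RNA-seq had been run on tumours grown in FVB mice from Myc-CaP cells and on the cells in culture. Myc-CaP is a mouse prostate cancer line that arose in mice with a human MYC transgene under an androgen-responsive probasin promoter, so cells and tumours of every group carry the transgene as well as mouse Myc. The groups were tumours of 3 lines with a CRISPR-Cas9 knockout (KO) of Ern1, the gene of the endoplasmic reticulum stress sensor IRE1α (KO1, KO2 and KO3, 3 tumours each), 4 tumours of wild-type (WT) cells, cultured cells of the same 3 KO lines (2 libraries each), and 2 libraries of cultured WT cells. All KO lines were made with the same guide RNA. Whether each line was grown from 1 cell, and the site of grafting and the age of the mice, are not stated in the labels.

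Total counts were 15994265 to 27497767 per tumour library and 18105510 to 25068239 per cell library. Ern1 RNA was present in every library, at 59.1 to 89.4 CPM (counts relative to library size) in KO tumours, 66.1 to 84.5 CPM in WT tumours, 171 to 200.4 CPM in KO cells and 120.5 to 133 CPM in WT cells. These counts join all reads of the gene and do not show the edit. Of 8 markers of prostate luminal epithelium, Epcam had 0 counts in all 8 cell libraries, while the 8 summed to 2539 to 2745 CPM in KO cells and 2564 to 2614 CPM in WT cells. Tumours also held RNA of host cells: 12 leukocyte markers summed to 122 to 286 CPM in KO tumours and 97.9 to 278 CPM in WT tumours, against 1.80 to 2.44 CPM in KO cells and 2.55 to 2.62 CPM in WT cells. WT tumour 1 stood apart, with 4335 CPM over 10 skeletal muscle markers and 267 CPM over 6 neutrophil markers, where the other WT tumours had 2.003 to 64.8 CPM and 4.91 to 7.24 CPM. WT tumour 4 stood apart too: a single gene, Yam1, was at 322800 CPM there, against 79240 to 83890 CPM in the other WT tumours, and its trimmed-mean factor was 0.744, against 0.937 to 0.989. WT tumours 3 and 4 carry the same number with a different letter in their labels. They may come from 1 mouse, which is not stated, and p-values over 4 WT tumours would then be too small. No source says whether cell libraries of a group are separate cultures, so p-values measure the spread between libraries, which may be technical.

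Per length, Myc stood above every other member in all 8 groups. In TPM, which are counts divided by merged exon length, brought to the same total in every library without trimmed-mean scaling, it averaged 287 ± 76.9 in KO1 tumours, 183 ± 19.9 in KO2 tumours and 244 ± 69.2 in KO3 tumours (n = 3 each, SD), against 283 ± 43.8 in WT tumours (n = 4, SD). In cells it was at 540.4 ± 6.22, 473 ± 26.8 and 417 ± 11.4 TPM in KO1, KO2 and KO3, and at 452 ± 23.1 TPM in WT (SD, n = 2 each). Max, Mxd4 and Mlx formed the next tier in tumours, and in cells Mnt stood with them.

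In WT cells the order per length after Myc was Mxd4 at 69.5 TPM, Max at 63.4, Mlx at 49.8, Mnt at 46.9, Mxi1 at 11.0, Mxd1 at 3.58 and Mga at 2.67, and the ranges of neighbours in that order did not overlap. In WT tumours the ranges of Mlx, Max and Mxd4 overlapped, at means of 47.2, 44.9 and 39.5 TPM, as did those of Mxi1, Mxd1 and Mga next to each other, at 6.93, 5.19 and 2.34 TPM. In cells of all 3 KO lines Mnt ranked above Mlx, with line means of 57.4 to 59.8 TPM for Mnt and 45.5 to 48.7 TPM for Mlx, and their ranges did not overlap within any line. Max and Mnt overlapped in KO1 and KO2 cells. Mycn and Mycl were lowest in the tumours of every line, and their ranges overlapped except in KO1 tumours.

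**Figure D1:**
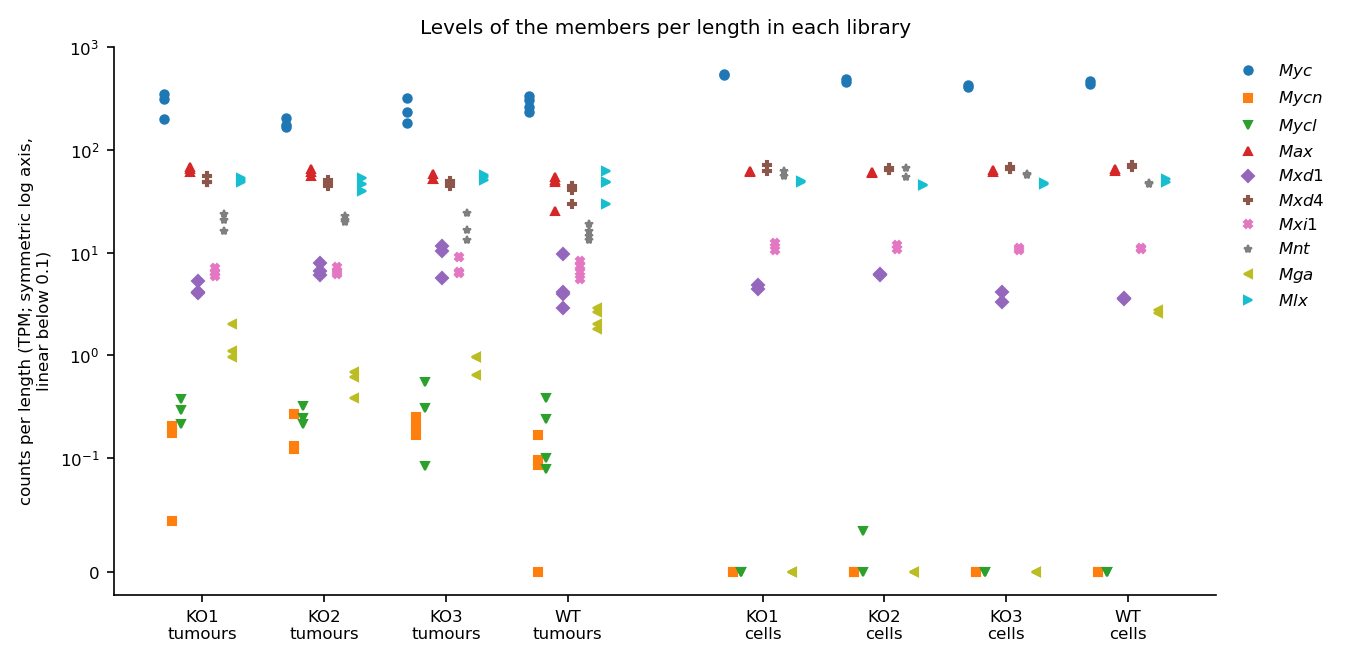
Level per length (TPM, symmetric log axis that is linear below 0.1) of the 10 genes in each library, by line in tumours and in cells, 1 marker per library. Myc lies highest in every group, and Mga is at 0 in all KO cell libraries, against 2.59 and 2.75 TPM in the WT cell libraries.

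Myc lies on mouse chromosome 15 at 61985391 to 61990374 (GRCm38, GENCODE M21). The 9 KO tumours had a lowest, median and highest Myc level of 201, 248.5 and 384 CPM, against 291, 400.0, 399.6 and 474 CPM in WT tumours 1 to 4. On this trimmed-mean scale all 9 KO tumours lay below WT tumours 2 to 4, and WT tumour 1 lay within their range. In TPM, without that scaling, the tumours overlapped further, at up to 346.5 in KO1 tumours, against 233 to 333 in WT tumours. The log2 difference was -0.52 ± 0.18 (SE, edgeR quasi-likelihood test, adjusted p = 0.117), or -0.32 with total counts, and did not pass the threshold of 0.05. It was -0.42 without WT tumour 4 and -0.65 without WT tumour 1, and passed in neither case (edgeR adjusted p = 0.265 and 0.0758).

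In cells Myc was at 409, 443 and 513 CPM as the lowest, median and highest of 6 KO libraries, against 497 and 503.5 CPM in WT, a log2 difference of -0.17 ± 0.11 (SE, edgeR adjusted p = 0.306), or 0.02 with total counts in place of trimmed-mean scaling. Both WT libraries lay within the KO range. The 3 KO lines differed among themselves: Myc was at 513 and 467.5 CPM in KO1 cells, 425 and 461 CPM in KO2 cells, and 410.4 and 409 CPM in KO3 cells. The range over the lines was 0.29 on the log2 scale (edgeR adjusted p = 0.0396). That call was lost in 7 of 14 alternatives, over which the range lay between 0.21 and 0.38. The 7 were leaving out KO1 library 1, either KO3 library or either WT library, the length-scaled table, and the replicate block. The deposited count joins all reads assigned to mouse Myc, and how many came from the human transgene was not measured; Pbsn, the natural gene of the promoter that drives it, had at most 1 count in any group.

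Mycn, a paralogue best known from neural and embryonic tissue, had 0 counts in all 8 cell libraries, and in tumours 48 counts over the 9 KO libraries and 11 counts over the 4 WT libraries. It passed no filter on low counts. Mycl had 1 count over the 6 KO cell libraries and 0 over the 2 WT cell libraries, and was at 0.167 to 0.948 CPM in KO tumours and 0.196 to 0.711 CPM in WT tumours. The ranges of KO and WT tumours overlapped for both genes.

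The promoters were searched for CACGTG, which reads the same on both strands. RefSeq windows of 250 bases before to 50 after a start (GRCm38.p6) were found for 9 of the 10 members, not for Myc, and 4 of the 9 hold it: Max, Mxd4, Mnt and Mlx. Of all 32851 windows 7.15% hold it. These 4 are shown because Max, Mxd4 and Mlx were the members besides Mga called in KO cells, and Mnt the member called lower in tumours of both genotypes. The 60 bases around each site follow, on the strand of the gene, with the E-box in capitals.
Max (chr12:76962219-76962278, minus strand): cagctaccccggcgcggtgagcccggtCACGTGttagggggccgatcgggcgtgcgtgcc
Mxd4 (chr5:34187897-34187956, minus strand): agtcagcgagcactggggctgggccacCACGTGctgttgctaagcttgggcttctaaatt
Mnt (chr11:74830774-74830833, plus strand): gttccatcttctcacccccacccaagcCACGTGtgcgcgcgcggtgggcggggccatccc
Mlx (chr11:101087223-101087282, plus strand): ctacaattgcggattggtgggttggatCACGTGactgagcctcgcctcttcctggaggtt

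The first base of the E-box lies 3 bases before the RefSeq start in Max, 219 before it in Mxd4, 123 in Mnt and 40 in Mlx. Mxi1 has 3 windows and Mxd1, Mga, Mycl and Mycn 1 each, none with these letters. A match is a description of the letters and no sign of binding in these cells.

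Max, the obligate partner of MYC, was at 71.9, 74.9 and 85.2 CPM as the lowest, median and highest of 6 KO cell libraries, against 94.3 and 91.6 CPM in the WT cell libraries. Mxd4, an antagonist linked to differentiation and quiescence, was at 181, 195.6 and 205.5 CPM in KO cells, against 253.5 and 228 CPM in WT cells. Mlx was at 31.3, 32.4 and 35.3 CPM in KO cells, against 43.1 and 38.1 CPM in WT cells. Each of these 3 genes was lower in all 6 KO libraries than in both WT libraries. No share of all genes is given for this separation. The 3 are grouped here by calls in the same libraries, so it adds no support to those calls.

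Max, Mxd4 and Mlx fell in KO cells by the test, with log2 differences of -0.30 ± 0.07, -0.32 ± 0.07 and -0.32 ± 0.07 (SE) and adjusted p of 0.0242, 0.016 and 0.0179 by edgeR. With Mga they were the 4 of 8 tested members called in KO against WT cells, all lower; Mycn and Mycl were not tested. Among all 12254 genes tested 14.8% were called, 9.76% lower and 4.99% higher. The 3 calls were lost without KO1, without KO2, with libraries summed per line, and without either WT cell library, in the last case with adjusted p of 0.0825 to 0.261 by edgeR. Those of Max and Mlx were also lost with the length-scaled table (edgeR adjusted p = 0.0551 and 0.0651).

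These 3 calls also depend on the scaling of the libraries. With trimmed-mean scaling (TMM) 1808 genes were called, of which 33.8% were higher, and the median difference of all genes was 0.02. With total counts in place of TMM, chosen after seeing the data, 3348 genes were called, of which 78.9% were higher, and that median was 0.21. The differences of Max, Mxd4 and Mlx were then -0.11, -0.13 and -0.14, and did not pass, while Mnt passed at 0.26 (edgeR adjusted p = 0.0456). Relative to the median of all genes they were -0.32, -0.34 and -0.35 under both scalings.

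Per length the same 3 genes lay close together in KO and WT cells. Max was at 59.8 to 64.0 TPM in KO cells and 62.4 to 64.4 TPM in WT cells. Mxd4 was at 61.5 to 71.7 TPM in KO cells, against 67.9 to 71.1 TPM in WT cells, and Mlx at 45.5 to 49.2 TPM in KO cells, against 48.2 to 51.4 TPM in WT cells. All 3 ranges overlapped on this scale, which is without TMM.

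Mxi1, an antagonist of the MXD family, lay at 24.9 to 27.7 CPM in KO cells, below its 31.1 and 29.9 CPM in WT cells, but did not pass, with a log2 difference of -0.21 ± 0.07 (SE, edgeR adjusted p = 0.0662). Mnt, a broadly expressed antagonist, was at 85.6 to 105 CPM in KO cells and at 89.8 and 87.3 CPM in WT cells, with a log2 difference of 0.08. Mxd1, an antagonist induced in differentiation, was at 8.27 to 15.0 CPM in KO cells and at 10.7 and 9.95 CPM in WT cells, with a log2 difference of 0.17.

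**Figure D2:**
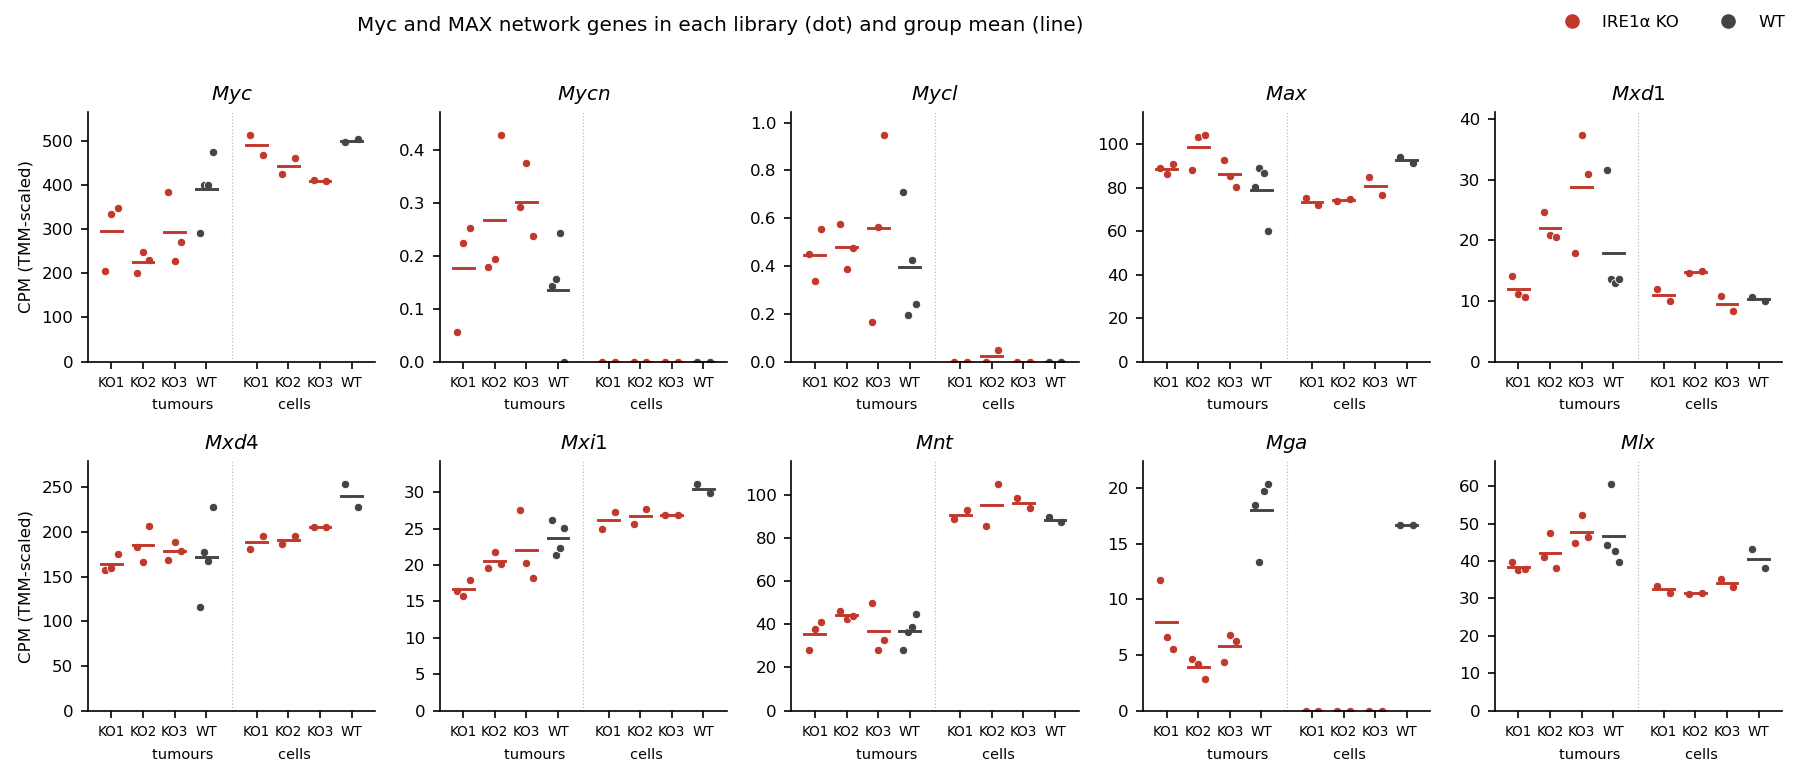
Level in CPM (TMM-scaled over all 21 libraries) of the 10 genes, 1 dot per library and a line at the group mean, tumours left and cells right in each panel, KO in red and WT in grey. Mnt lies at 28.0 to 49.8 CPM in KO tumours, below all KO cell libraries, and Mga at 2.86 to 11.7 CPM in KO tumours, below all WT tumours.

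In tumours Mga was the 1 of 9 tested members called in KO against WT, where 3.65% of 14200 genes were called, 1.28% higher and 2.37% lower. The levels of the others overlapped between KO and WT tumours. Max was at 80.2 to 104 CPM in KO tumours and 59.9 to 89.2 CPM in WT tumours, with a log2 difference of 0.21 ± 0.11 (SE, edgeR adjusted p = 0.287). The differences of Mxi1, Mlx, Mnt and Mxd4 were -0.26, -0.12, 0.08 and 0.04. With total counts 871 genes were called in place of 518, with 83.5% higher in place of 35.1%, the median of all genes was 0.17 in place of 0.00, and Mlx turned to 0.03.

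The effect of the knockout on Max was 0.52 ± 0.15 (SE) higher in tumours than in cells on the log2 scale. It did not pass by edgeR (adjusted p = 0.117) and passed by DESeq2 (adjusted p = 0.0475). For Mxd4 the same contrast gave 0.38 (edgeR adjusted p = 0.398). Mga alone among the 9 members tested passed in this contrast, where 0.962% of 15173 genes did, 0.863% higher.

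**Figure D3:**
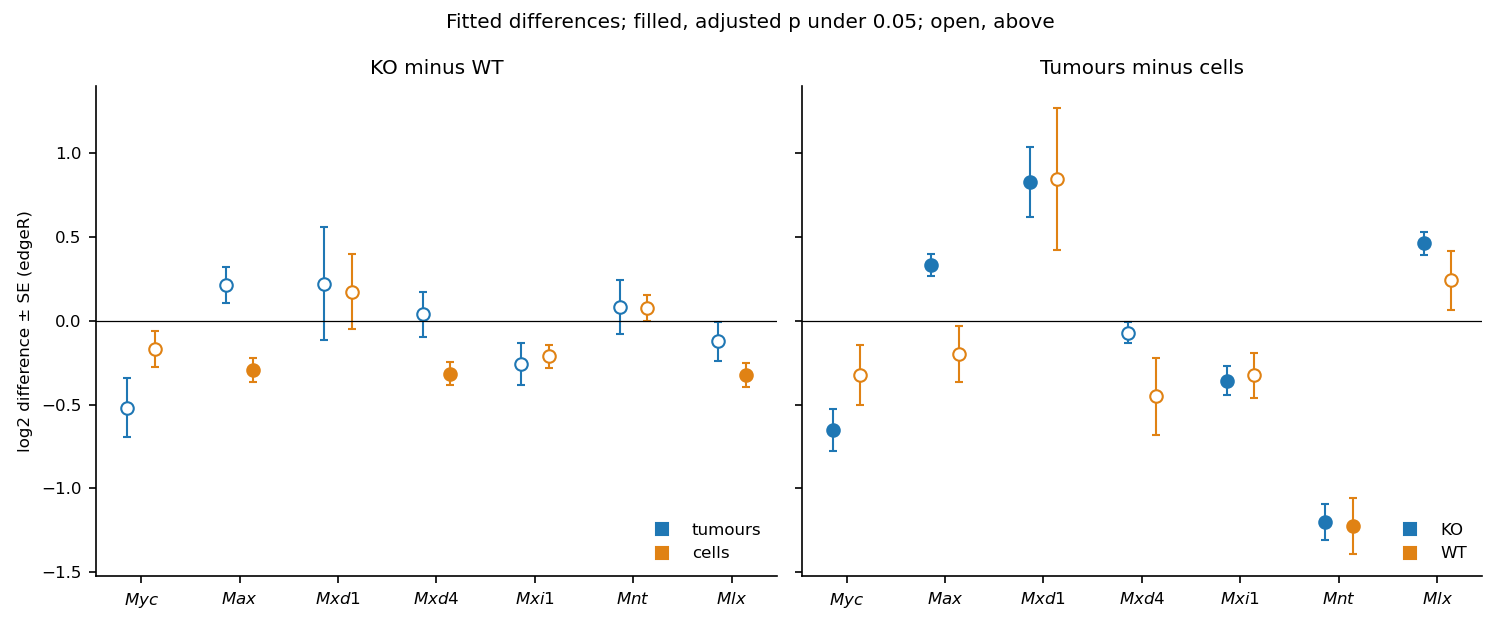
Fitted log2 differences (edgeR, bars of 1 SE) of 7 members, KO minus WT at left (tumours in blue, cells in orange) and tumours minus cells at right (KO in blue, WT in orange), filled where the adjusted p was under 0.05. Mnt lies at -1.20 in KO and -1.23 in WT for tumours minus cells, and the filled points at left are Max, Mxd4 and Mlx in cells, at -0.30, -0.32 and -0.32.

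Mxd1 differed among the KO lines. In cells it was at 14.6 and 15.0 CPM in KO2, against 11.9 and 9.92 CPM in KO1, 10.8 and 8.27 CPM in KO3, and 10.7 and 9.95 CPM in WT. Both KO2 libraries lay above all the others, and the range over the lines was 0.67 on the log2 scale (edgeR adjusted p = 0.0097). Mxd1 and Myc were the 2 of 8 tested members that differed among KO lines in cells, where 30.3% of 12254 genes did.

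In tumours the order of the lines for Mxd1 was another one. KO3 tumours were at 17.9, 37.4 and 31.0 CPM, KO2 tumours at 24.8, 20.8 and 20.5 CPM, and KO1 tumours at 14.04, 11.2 and 10.7 CPM. WT tumours 2 to 4 were at 13.6, 13.03 and 13.6 CPM, and WT tumour 1, which had the high neutrophil sum, at 31.6 CPM. The range over the KO lines was 1.26 on the log2 scale, with an adjusted p of 0.13 in edgeR, 0.0235 in DESeq2, and 0.0159 in edgeR without WT tumour 1. No member was called among KO lines in tumours by edgeR, where 2.95% of 14483 genes were, and the unadjusted p of 2 members, Mxd1 and Mga, was 0.00984 and 0.015 by edgeR. The 6 neutrophil markers summed to 3.88 to 8.57 CPM in KO tumours, with the highest value in KO3 tumour 2, which had the highest Mxd1. Between KO1 and KO2 the order differed. KO2 tumours had sums of 3.88 to 5.88 CPM, and KO1 tumours, all lower in Mxd1, had 5.196 to 6.11 CPM. WT tumours 2 and 3, also lower in Mxd1 than every KO2 tumour, had 6.835 and 7.244 CPM. The part of host cells in the Mxd1 level was not tested.

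Of the 7 members counted in every library, Mnt differed most between tumours and cells. It was at 28.0, 40.9 and 49.8 CPM as the lowest, median and highest of 9 KO tumours, against 85.6, 93.4 and 105 CPM over 6 KO cell libraries. In WT it was at 28.0, 36.3, 39.0 and 44.9 CPM in tumours, against 89.8 and 87.3 CPM in cells. The groups did not overlap in either genotype, and Mnt fell by 1.20 ± 0.11 (SE) in KO tumours and by 1.23 ± 0.17 (SE) in WT tumours on the log2 scale, with adjusted p of 3.6e-08 and 0.00117 by edgeR. In bulk tissue fewer cells of a type and less RNA per cell cannot be told apart.

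Myc fell in KO tumours against KO cells as well, with a difference of -0.65 ± 0.13 on the log2 scale (SE, edgeR adjusted p = 0.000211), and all 9 tumours lay below all 6 cell libraries. In WT the 4 tumours lay below both cell libraries too, but the difference of -0.32 ± 0.18 (SE) did not pass (edgeR adjusted p = 0.174). Without WT tumour 4 it was -0.45 (edgeR adjusted p = 0.0491). That tumour had the highest Myc of the WT tumours on the trimmed-mean scale, but not before scaling. It had 5884 Myc counts among 16694171, against 6564 among 16613937 in WT tumour 3. The difference between KO and WT in the change of Myc from cells to tumours was -0.32 ± 0.27 (SE, edgeR adjusted p = 0.762).

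Of 8 members tested in KO tumours against KO cells, 7 were called, 4 higher and 3 lower, where 76.6% of 13722 genes were called, 43.8% higher and 32.8% lower. The share of members called is near that of all genes. Mlx rose by 0.46 ± 0.07, Max by 0.33 ± 0.07 and Mxd1 by 0.83 ± 0.21, Mxi1 fell by 0.36 ± 0.09 (log2, SE), and Mxd4 did not pass at -0.07, though it did at -0.17 with total counts (edgeR adjusted p = 0.0147). In WT, 1 of 8 was called, Mnt, lower, where 51.0% of 14031 genes were, 29.8% higher and 21.3% lower. Mxd1 was at 0.84 ± 0.42 (SE) there, and at 0.41 without WT tumour 1, with an adjusted p of 0.136 and 0.0312 by edgeR.

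Ratios of TPM within a library do not depend on the scaling between libraries. They were chosen after the levels were seen and are given with no test. Max over Myc was 0.183 to 0.343 in KO tumours and 0.0955 to 0.208 in WT tumours, against 0.111 to 0.157 in KO cells and 0.137 to 0.143 in WT cells. Mnt over Myc was 0.0667 to 0.136 in KO tumours and 0.0532 to 0.0573 in WT tumours, with no overlap between them. In cells it was 0.102 to 0.141 in KO and 0.102 to 0.106 in WT, which overlapped. Mga over Max was 0.00643 to 0.0309 in KO tumours and 0.0351 to 0.0798 in WT tumours, with no overlap either, and Mga was itself lower in KO tumours. No share of other gene pairs is given for these separations. Other ratios overlapped: Mxd4 over Myc was 0.140 to 0.292 in KO tumours and 0.127 to 0.154 in WT tumours. Mlx over Max was 0.657 to 1.105 and 0.883 to 1.223 there, and Mxd4 over Max 0.681 to 0.942 and 0.612 to 1.61. The 5 antagonists together made up 0.255 to 0.518 of the Myc level in KO tumours and 0.235 to 0.273 in WT tumours, which overlapped. The means were 0.373 ± 0.0958 in KO tumours (SD, n = 9) and 0.248 ± 0.0176 in WT tumours (SD, n = 4). In cells the means were 0.299 ± 0.0344 in KO (SD, n = 6) and 0.296 ± 0.0174 in WT (SD, n = 2).

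**Figure D4:**
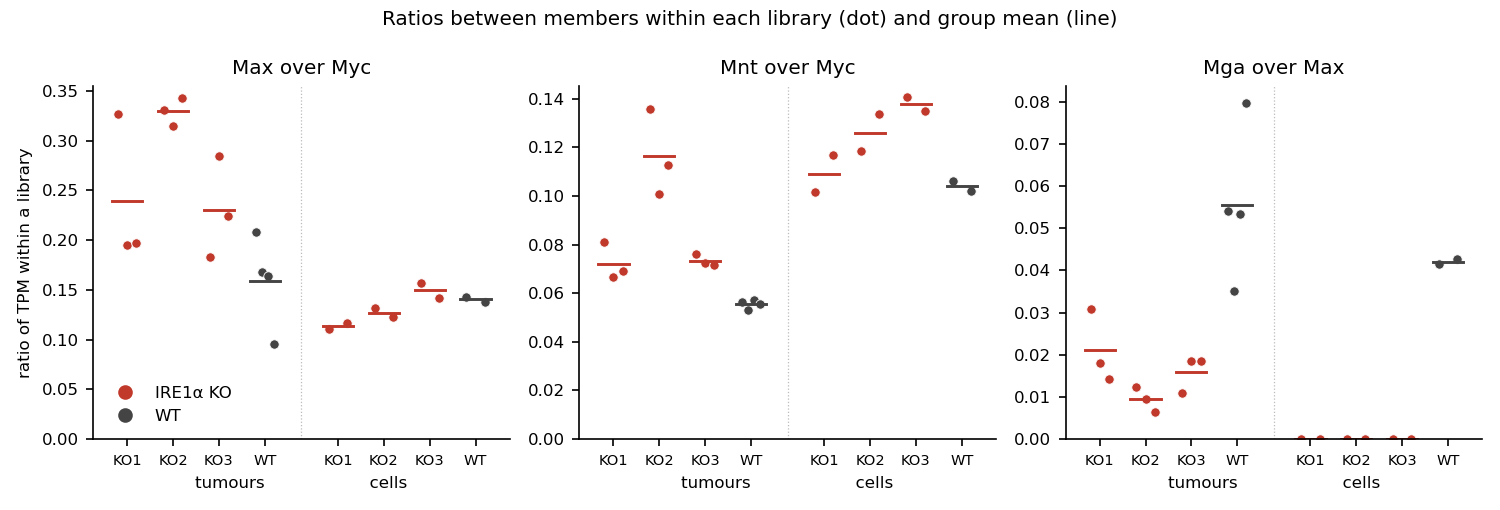
Ratio of TPM between members within each library, 1 dot per library and a line at the group mean, tumours left and cells right, KO in red and WT in grey, for Max over Myc, Mnt over Myc and Mga over Max. For Mnt over Myc all 9 KO tumours lie above the 4 WT tumours, which lie at 0.0532 to 0.0573.

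Mga had 0 counts in KO cells and fell in KO tumours. It encodes a large protein with a T-box and a MAX-binding domain, and is the scaffold of the polycomb complex PRC1.6, which represses germline genes in embryonic stem cells and somatic tissue. Mga lies on chromosome 2 at 119897228 to 119969581 (plus strand, GRCm38, GENCODE M21), and its merged exons are 15340 bases long.

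The 0 counts held in each of the 6 KO cell libraries, of all 3 lines. The WT cell libraries had 347 and 319 counts, which is 16.7 CPM in both. A count of 0 among the 127167710 counts of the KO cells together allows up to 0.0236 CPM (3 counts over the group, covering counting error only), against 15.4 CPM without TMM in WT cells, so that Mga was at least 654-fold lower in KO cells. The call had an edgeR adjusted p of 0.000109.

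In KO tumours Mga was present. KO1 tumours were at 11.7, 6.62 and 5.499 CPM, KO2 tumours at 4.63, 4.22 and 2.86 CPM and KO3 tumours at 4.34, 6.78 and 6.31 CPM, against 18.5, 13.4, 19.8 and 20.4 CPM in WT tumours. All 9 KO tumours lay below all 4 WT tumours. Mga fell by 1.61 ± 0.27 (SE) on the log2 scale in KO tumours (edgeR adjusted p = 0.00692), with a difference of -1.55 without WT tumour 4 and -1.56 with WT tumours 3 and 4 summed (edgeR adjusted p = 0.0248 and 0.0254).

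The difference of the KO effect between tumours and cells passed (edgeR adjusted p = 1.2e-05); its fitted size depends on the prior count, since Mga was at 0 in KO cells. WT tumours and WT cells differed by 0.15 ± 0.20 (SE, edgeR adjusted p = 0.571), and the tumours lay on both sides of the cells. Among the KO tumours the range over the lines was 1.03 on the log2 scale (edgeR adjusted p = 0.157). The tumour call was lost when the libraries of each line were summed into 1, at -1.54 (edgeR adjusted p = 0.662), and in no other alternative run.

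Host markers are given beside the tumour levels of Mga. KO1 tumour 1, highest in Mga among KO tumours, also had the highest leukocyte sum among them, 286 CPM, and 2705 CPM over 8 fibroblast and pericyte markers. KO2 tumour 3, lowest in Mga at 2.86 CPM, had the lowest sums among KO tumours, 122 and 725 CPM. Between them the order differed: KO3 tumour 2, with Mga at 6.78 CPM, had 166 and 751 CPM, and KO1 tumour 3, with Mga at 5.499 CPM, had 207.5 and 1939 CPM. Among WT tumours, tumour 4 had the highest Mga and the lowest sums, 97.9 and 509 CPM, on the trimmed-mean scale. That rank in Mga depends on the scaling, whose factor was 0.744 in tumour 4. Before scaling, tumour 4 had 253 Mga counts among 16694171, against 325 among 16613937 in tumour 3. The part of host cells in the Mga level of KO tumours was not tested.

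The letters before the Mga start are shown because the gene was at 0 counts in KO cells while Mapkbp1, the nearest gene after it, was not. The 250 bases before the RefSeq start (chr2:119896978-119897227, plus strand, GRCm38.p6) hold no CACGTG, the palindromic E-box that MYC-MAX dimers prefer, which would stand in capitals.
Mga: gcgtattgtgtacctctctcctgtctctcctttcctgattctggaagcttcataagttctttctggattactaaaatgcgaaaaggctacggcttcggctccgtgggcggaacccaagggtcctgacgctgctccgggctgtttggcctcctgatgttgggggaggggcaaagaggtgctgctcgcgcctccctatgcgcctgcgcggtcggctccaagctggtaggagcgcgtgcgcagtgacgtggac

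The 5 protein-coding genes annotated on each side of Mga were read for comparison. Mapkbp1, a scaffold of a kinase pathway whose start lies 3.12 kb after the end of Mga, was at 11.3 to 16.5 CPM in KO cells, against 8.69 and 9.38 CPM in WT cells. Tyro3, a receptor tyrosine kinase whose gene ends 79.1 kb before Mga, was at 4.24 to 5.96 CPM in KO cells, against 3.65 and 2.36 CPM in WT cells. Both rose, by 0.53 ± 0.14 and 0.76 ± 0.21 on the log2 scale (SE), with adjusted p of 0.0379 and 0.0383 by edgeR. The KO and WT cell libraries did not overlap for either gene. No share of all genes is given for this separation, and both genes are singled out by calls in the same libraries. The separation therefore adds no support to these calls, for which no alternatives are given here.

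They were 2 of 8 neighbours tested in cells, where 4.99% of all genes were called higher and 9.76% lower. None of the 8 fell, and Rtf1, Rpap1, Jmjd7, Gm28042, Pla2g4b and Ehd4 did not pass, at 0.11, 0.12, 0.25, 0.05, 0.50 and -0.20. Itpka and Ltk were too low to be tested. In tumours none of the 8 passed, with Mapkbp1 at 0.10 and Tyro3 at 0.79 ± 0.35 (SE). Gm28042 overlaps Jmjd7 and Pla2g4b, so how reads were split between them is uncertain.

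**Figure D5:**
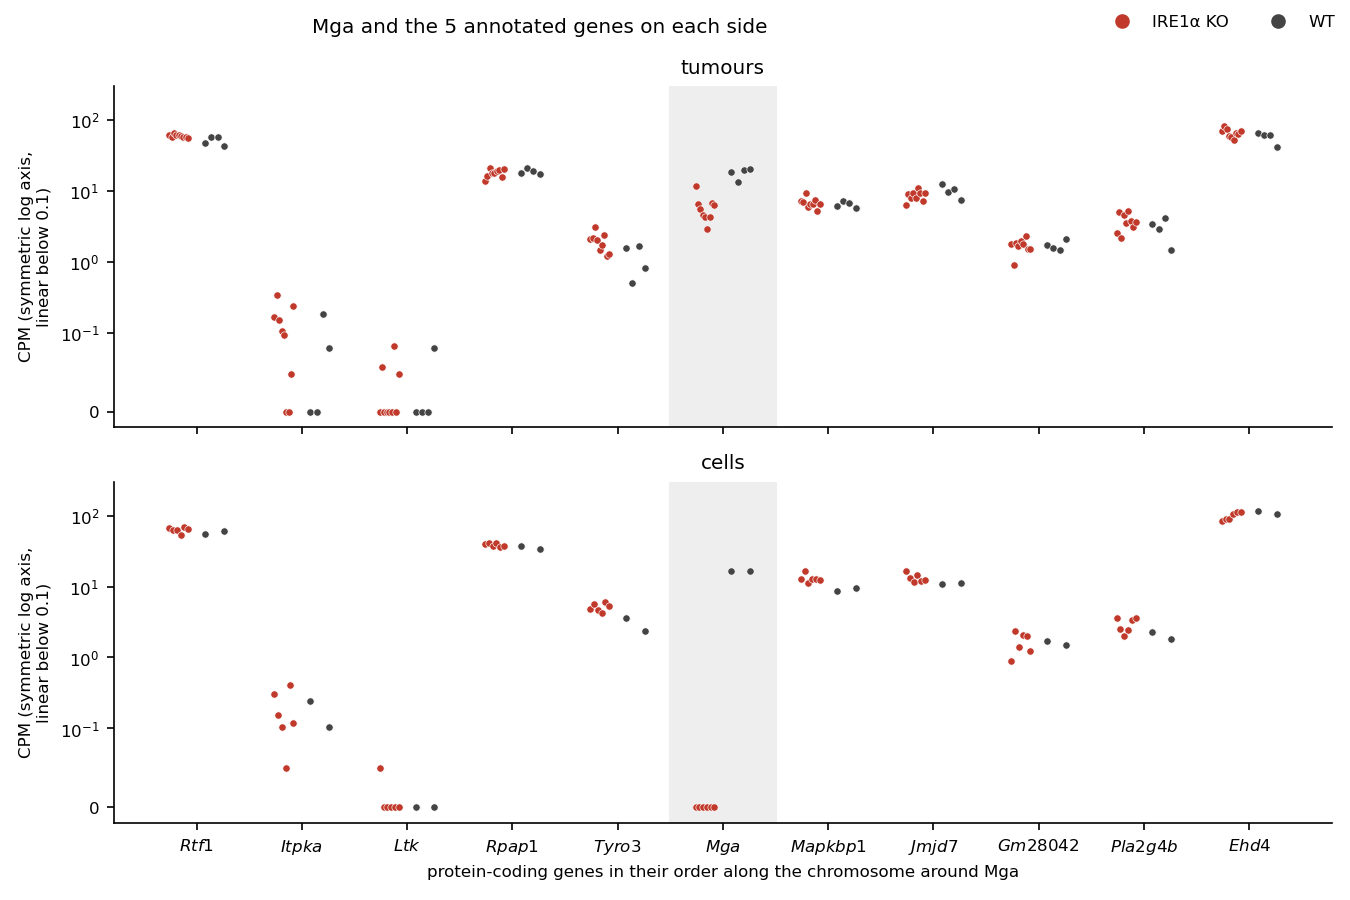
Level (CPM, symmetric log axis that is linear below 0.1) of Mga, shaded, and of the 5 protein-coding genes on each side in their order along the chromosome, 1 dot per library, tumours above and cells below, KO in red and WT in grey. Mga lies at 0 in all 6 KO cell libraries, while Mapkbp1 next to it lies at 11.3 to 16.5 CPM there.

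The partners of MGA in PRC1.6 were read next. None of the 13 tested subunits was called in KO against WT cells, where 14.8% of all genes were, and none of 14 in tumours, where 3.65% were. The median log2 differences of the subunits were 0.10 and 0.20, against 0.02 and 0.00 over all genes tested. L3mbtl2, which binds MGA in the complex, was at 24.2 to 38.5 CPM in KO cells and 22.3 and 22.6 CPM in WT cells, without passing (0.51 ± 0.19, SE, adjusted p of 0.109 by edgeR). E2f6, the E2F protein of the complex, had 5 counts over the 6 KO cell libraries and 0 over the 2 WT cell libraries. In tumours it was at 6.83 to 12.6 CPM in KO and 5.08 to 10.0 CPM in WT, so E2f6 was near 0 in cultured cells of both genotypes, and present in each tumour.

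Of 28 germline genes known in mouse as targets of PRC1.6, 26 were in the table, and 15 of them had at most 3 counts over the 6 KO cell libraries, among them Dazl, Sycp3 and Stra8 with 0 there. Of the 5 tested in cells, Zcwpw1 rose, a reader of histone marks in meiosis, and Tdrd9 fell, a helicase of the piRNA pathway. Zcwpw1 was at 80.7 and 82.6 CPM in KO1 cells, 79.3 and 81.5 CPM in KO2 cells and 54.9 and 57.1 CPM in KO3 cells, against 44.96 and 45.1 CPM in WT cells, a log2 difference of 0.68 ± 0.19 (SE, edgeR adjusted p = 0.0392). Tdrd9 had 27 counts over the KO cells and 26 over the WT cells. Among all genes tested in cells 14.8% were called. Genes with few counts in KO cells and 0 in WT cells were there too: Tex101 had 11 counts over the 6 KO libraries, Sohlh2 had 7 and Sycp1 had 5. The reverse was seen in Sycp3, with 0 counts over the KO cells and 3 over the WT cells. The KO cell libraries together held 127167710 counts, against 22914875 and 20238417 in the WT cell libraries, and these low genes were not tested. None of the 6 germline genes tested in tumours passed.

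Targets of MYC are given from lists chosen with earlier results of these data known, beside 14.8% of all genes called in KO against WT cells (9.76% lower, 4.99% higher) and 3.65% in tumours. Of the genes called, 78.9% were higher in cells with total counts and 33.8% with TMM, and 83.5% and 35.1% in tumours. None of 30 nucleolar and ribosome biogenesis targets was called in KO against WT, in cells or in tumours, with medians of 0.05 and 0.02. Of 29 tested targets in metabolism, translation and growth, 4 fell and none rose in KO cells, among them Srm, which makes spermidine, at -0.67 ± 0.10 (SE), Nme2, a nucleoside diphosphate kinase, at -0.44, and Phb, prohibitin of the mitochondrial membrane, at -0.31. That count is near the share of all genes called, and the median of the list was -0.11. In tumours 1 of 30 fell, the cap-binding factor Eif4e, at -0.40 ± 0.10 (SE).

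Of 24 cofactors and turnover factors of MYC, 2 fell in KO cells, the elongation factors Ctr9 at -0.67 ± 0.11 and Supt5 at -0.29 ± 0.08, and the mitotic kinase Aurka rose by 0.90 ± 0.25 (SE), a count also near that of all genes. In tumours the corepressor scaffold Sin3a rose, by 0.35 ± 0.08 (SE), and no other did. Of 8 tested genes that MYC represses with MIZ1, Ndrg2 and Cdkn2b fell in KO cells, at -0.66 and -1.01, where 14.8% of all genes were called. In tumours Gadd45a fell by 1.31 and was 1 of 10, where 3.65% of all genes were called. Txnip, the best known target of MLX with MondoA, fell by 0.88 ± 0.21 (SE) in KO cells and was at -0.63 in tumours without passing. It was the 1 of 4 tested targets of MLX with MondoA called in KO cells. Arrdc4, Klf10 and Khk were at 0.27, -0.06 and -0.21 there without passing. No gene of the 5 tested in cells and 6 in tumours from the wider network, such as Mlxip, Usf1 and Usf2, was called.

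Between tumours and cells, 4 of 5 tested genes of the wider network fell and none rose in KO tumours, with Usf2 at -1.08 and Mlxip, which encodes MondoA, at -0.41, and in WT tumours 2 of 5 fell, Usf2 at -0.93 and Mlxip at -0.51. Mxd3, an MXD antagonist of proliferating cells, did not pass, at 0.43 in KO tumours and 0.93 in WT tumours. Of the 24 cofactors, 17 fell and 2 rose in KO tumours, and 12 fell and none rose in WT tumours, with Supt5 at -0.82 in KO tumours and -0.94 in WT tumours. The nucleolar targets went both ways, 13 lower and 6 higher of 30 in KO tumours and 7 lower and 2 higher in WT tumours. These counts stand beside 32.8% of all genes lower in KO tumours and 21.3% in WT tumours, and the part of the host cell RNA in them was not tested.

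The genes whose mean log2 CPM over the 8 groups was most like that of Mga, among 9425 candidates, were Pqlc1, Vkorc1, Lrba, Pgm3 and Srm, with Pearson correlations of 0.98, 0.97, 0.97, 0.96 and 0.96. These are descriptions over 8 group means, of which 3 are KO cells with Mga at 0. Vkorc1, the vitamin K epoxide reductase, averaged 41.2, 35.9 and 44.0 CPM in KO1, KO2 and KO3 tumours, against 49.2 CPM in WT tumours, and 21.5, 18.8 and 22.0 CPM in KO cells, against 40.0 CPM in WT cells. Among those most like Myc were Rapgef2, Naa60, Phax and Cblb, at 0.99, 0.98, 0.98 and 0.98. Rapgef2, an exchange factor of the small GTPase RAP, averaged 16.8, 15.0 and 17.1 CPM in KO1, KO2 and KO3 tumours, against 19.2 CPM in WT tumours, and 21.6, 20.4 and 20.1 CPM in KO cells, against 23.0 CPM in WT cells.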

How the data were processed

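Per the labels' protocols, polyadenylated RNA of cells and tumours was made into stranded libraries and read as 50 bp pairs. Salmon 1.5.2, STAR and Trim Galore 0.6.7 were run against GRCm38, per the submitters' processing notes, with no settings stated. The authors deposited gene-level estimated counts, not all whole (7.96% to 10.2% of values per library), as a plain table and as one scaled by transcript length. Of 45706 gene IDs, 45143 were found in GENCODE M21, which gave positions and exon lengths.

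The deposited estimated counts (plain table) were rounded to whole numbers, low genes were dropped with filterByExpr, libraries were scaled by TMM, and edgeR 4.0.16 in R 4.3.3 gave quasi-likelihood F tests, with Benjamini-Hochberg adjustment over all genes tested and a threshold of 0.05. KO and WT were compared within tumours and within cells, the interaction on all 21 libraries, the 3 KO lines against each other, and tumours against cells within each genotype, with the line as a term in KO. CPM are TMM-scaled over 21 libraries, and log2 CPM used a prior count of 2. Fitted fold changes of genes at 0 in a group depend on that fit and are no bounds.

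The members, lists, tests and alternatives were chosen with earlier results of these data known. All 10 members were named, with the 5 protein-coding genes on each side of Mga, up to 3 called genes with the smallest p per list, and the 5 genes most like Mga and Myc in mean log2 CPM over 8 groups (mean of at least 2, no predicted names). A few genes that these rules name are not reported here. Lists are described by counts, without a set test. Alternatives were RLE scaling, total counts (added after seeing the data), no filter on low counts, DESeq2 1.42.0, the table scaled by length, a replicate block, lines as groups, libraries summed per line, WT tumours 3 and 4 summed (both carry 1 number in their labels), and leaving out each library or KO line. Where this left 1 WT cell library, it was assumed to vary like the others. Replicates of every group differed by more than sampling noise (lowest chi-square per degree of freedom 7.98). The steps were tested on simulated data. Figures were drawn with matplotlib 3.10.9.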

Additional observations from a re-analysis of the deposited data

Results flagged for a closer look

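Mxd1 in WT tumour 1, at 31.6 CPM, lay far from the other 3 WT tumours, at 13.03 to 13.6 CPM, in the library that also had the high neutrophil and skeletal muscle sums. KO1 tumour 1, at 11.7 CPM, lay far from the other 8 KO tumours in Mga, at 2.86 to 6.78 CPM. Mycl in KO2 cells, library 2, at 0.0499 CPM, is 1 count where the other 5 KO cell libraries had 0. These 3 come from 28 groups of values examined, and chance marks about 1 in 20.

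The effect of the knockout on Mga differed between tumours and cells by 9.85 on the log2 scale in the interaction fit of edgeR, with an adjusted p of 1.2e-05, a size that depends on the prior count. In cells the KO lines differed in Mxd1, with a range of 0.67 on the log2 scale, higher in both KO2 libraries, and in Myc, with a range of 0.29, lower in both KO3 libraries.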

How the results depend on the processing

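Mga kept its direction and its call under all alternatives run in KO against WT cells and in the interaction, and Mnt in tumours against cells of both genotypes. Over the alternatives Mga in KO against WT tumours ranged from -2.11 to -1.38, and Mxd1 among KO lines in cells from 0.49 to 0.86, called in all 14. The cause of the changes below was not tested.

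Genes called in KO against WT cells were 3348 with total counts, 4780 with lines as groups, 1162, 1137 and 4315 without KO1, KO2 and KO3, and 38 with libraries summed per line; members called were 2 with total counts, 2 with the length-scaled table, 1 without KO1 or KO2, and 1 summed per line. In tumours genes called were 871 with total counts, 1078 by DESeq2, 332 unfiltered, 98 with the replicate block, 1118 with lines as groups, 297 and 123 without KO1 and KO2, 246 with WT tumours 3 and 4 summed, and 0 (members 0) summed per line, where 518 passed otherwise and 2776 had an unadjusted p under 0.05. For the interaction they were 324 by DESeq2 (members 2), 68 with the block, 599 with lines as groups, and 83 and 543 without KO2 and KO3. Among KO lines in cells they were 2271 with the length-scaled table (members 1), and members 1 with the block. Among KO lines in tumours DESeq2 called 1263 (members 1). In WT tumours against WT cells, members called were 2 unfiltered and 4 with the block.

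Leaving out 1 library in turn gave 378 to 2221 genes and 1 to 4 members called in KO against WT cells, lowest without either WT library, 154 to 594 genes and 1 member in tumours, lowest without WT tumour 2, 42 to 192 genes and 1 member for the interaction, 2094 to 4247 and 1 to 2 among KO lines in cells, 128 to 1095 and 0 to 1 among KO lines in tumours, highest without WT tumour 1, 10230 to 10473 and 7 to 8 in KO tumours against cells, and 3853 to 8115 and 1 to 3 in WT tumours against cells.

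Signs that turned belong to members that did not pass. With total counts Myc was 0.0197 in KO against WT cells and Mlx 0.0345 in tumours, and Mxd1 -0.0158 in the interaction. Without KO2 Mxd1 was -0.0311 in cells, Mxd4 -0.0042 and Mnt -0.0258 in tumours, and Mycl 0.358 and Mnt -0.0454 in the interaction. Without KO3 Mxd1 was -0.10 in tumours and -0.41 in the interaction, and without KO1 Mxi1 was 0.0479 there. In the interaction Mnt was -0.01 unfiltered, and Mxd1 -0.0349 with the block and -0.0265 with lines as groups. With the block Mga was -0.0419 in WT tumours against cells. Leaving out 1 library gave -0.197 to 0.0153 for Mlx, -0.0397 to 0.182 for Mnt and -0.119 to 0.198 for Mxd4 in tumours, and -0.0656 to 0.114 for Mnt, -0.113 to 0.513 for Mxd1, -0.106 to 0.0484 for Mxi1 and -1.09 to 0.32 for Mycl in the interaction.

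Same-numbered libraries deviated together, with a correlation over 0.1, in 4 of 12 pairs in cells and 5 of 18 in tumours, so the numbers were not taken to pair libraries. With the replicate block the same 1 member was called in KO against WT tumours and 4 in cells. The WT arm holds 1 line and 2 cell libraries, so the spread between WT lines was not measured.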
